A study of Mus musculus with 17 samples.

Results

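Inflammatory cytokine genes of fat are described here as a set of 10 named mouse genes: the cytokine genes *Tnf*, *Il6*, *Il1b*, *Il1rn* and *Il10*, the chemokine genes *Ccl2*, *Ccl3*, *Ccl4* and *Cxcl1*, and the acute phase gene *Saa3*. They were picked by name, through the Ensembl gene identifiers that the files pair with symbols, and all 10 were found among the 55401 genes listed for each library. RNA from whole perigonadal white adipose tissue (pWAT, the fat depot around the gonads) was sequenced from C57BL/6J mice on standard chow, untreated, in a phenotyping screen whose methods give 16 weeks as the age at tissue collection. There was 1 library each from 5 WT females, 5 U9-KO females, 3 WT males and 4 U9-KO males. U9-KO mice lack all exons of the long noncoding RNA gene *U90926*, and WT and U9-KO mice were littermates from crosses of heterozygotes.

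Adipose tissue holds adipocytes together with macrophages, lymphocytes, mesothelial cells and vessels, and most inflammatory cytokines of fat are made by the cells other than adipocytes. TNF and IL-1β act through their receptors on NF-κB, a transcription factor that drives further cytokine and chemokine genes together with its own inhibitors, and IL-6 acts through gp130 on STAT3. The chemokines of the CC class draw monocytes into the tissue, CXCL1 draws neutrophils, and IL-1 receptor antagonist and IL-10 restrain the response. In obese fat these genes are widely used as signs of low-grade inflammation.

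The promoter sequences below show, for *Saa3*, the member at the highest level in females, and for a pair of members that varied together among the mice, where the recognition sequences of inflammatory transcription factors lie. RefSeq (GRCm38.p6) held a promoter entry for 7 of the 10 members, *Tnf*, *Il6*, *Il1b*, *Il1rn*, *Ccl3*, *Cxcl1* and *Saa3*, and the 250 bases before each start were searched on both strands. Capitals mark matches to the NF-κB consensus (the κB site), to the AP-1 motif TGANTCA or to the C/EBP motif TTGCNNAA. The windows are chr5:90890995-90891244 on the plus strand for *Cxcl1*, chr2:129371140-129371389 on the minus strand for *Il1b* and chr7:46715677-46715926 on the minus strand for *Saa3*, each written 5′ to 3′ along its gene.
Cxcl1: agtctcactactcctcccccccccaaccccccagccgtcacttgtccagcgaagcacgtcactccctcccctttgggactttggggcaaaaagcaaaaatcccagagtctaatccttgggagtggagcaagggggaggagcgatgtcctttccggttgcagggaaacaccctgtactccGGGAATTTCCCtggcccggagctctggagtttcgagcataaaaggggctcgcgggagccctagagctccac
Il1b: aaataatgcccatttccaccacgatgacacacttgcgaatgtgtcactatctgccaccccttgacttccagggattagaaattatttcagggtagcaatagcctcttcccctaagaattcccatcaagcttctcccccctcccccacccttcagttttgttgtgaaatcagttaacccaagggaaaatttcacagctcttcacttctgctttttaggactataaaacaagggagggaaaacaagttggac
Saa3: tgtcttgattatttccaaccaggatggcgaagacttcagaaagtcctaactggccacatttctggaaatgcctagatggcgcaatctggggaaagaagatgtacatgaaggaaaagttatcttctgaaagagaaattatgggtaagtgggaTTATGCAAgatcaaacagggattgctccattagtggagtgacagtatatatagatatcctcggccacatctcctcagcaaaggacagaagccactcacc
The window of *Cxcl1* held 2 overlapping κB matches, from base 71 to base 61 before the start, and that of *Saa3* held a C/EBP match from base 99 to base 92. That of *Il1b* held no match to any of these motifs. Among the 7 members, the κB consensus was found in 2 (*Il6* and *Cxcl1*), AP-1 in 2 (*Il6* and *Il1rn*) and C/EBP in 2 (*Il6* and *Saa3*). The 7 members had 9 windows, since *Il1rn* had several, and only 1 of those held AP-1. These counts are of genes with a match in any window, whereas the shares that follow are of windows. Of all 32851 promoter windows of this length, 7.25% held the κB consensus, 6.75% held AP-1 and 9.56% held C/EBP.

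Values are normalized read counts, that is, read counts divided by a scaling factor of each library, as whole numbers. One read was worth between 0.813 and 1.32 normalized counts, and a library held an estimated 19700000 to 27600000 counted reads. Values of females and males appeared to have been scaled separately, so levels of both sexes are set side by side without a test. *U90926* itself was at 1 normalized count in WT female 3 and WT male 2 and at 0 in the other 15 libraries, 6 of them WT, so its values could not check the genotype labels. The genes that mark sex matched the labels in 17 of 17 libraries.

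Adipocyte markers were high in every library, and ovary markers were also high in some female libraries. Adipocyte markers summed to between 152428 and 506999 normalized counts, with the fatty acid carrier *Fabp4* highest, and no adipocyte marker was at 0 throughout. Ovary markers, led by the steroid synthesis enzyme *Cyp11a1*, summed to between 3600 and 138320 in the females and to at most 421 in the males. U9-KO female 1 and WT female 4 (the ovary-rich females below) were highest. *Cyp11a1* and *Fabp4* were at 71595 and 65303 in U9-KO female 1 and at 54629 and 84388 in WT female 4. Epididymis markers, led by *Crisp1*, summed to at most 8 in the males and at most 75 in the females, and *Lcn5* was at 0 in all libraries. Among the other marker lists the highest member was *Lyz2* for macrophages, *Csf3r* for neutrophils, *Trac* for T cells, *Dcn* for adipocyte progenitors, *Upk3b* for mesothelium, *Cdh5* for endothelium, *Ccl21a* for lymph node stroma and *Jun* for immediate early genes. The libraries are from bulk tissue, so fewer cells of a type and less RNA per cell cannot be told apart.

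Nearly all members were detected, most of them at a low level. Of 170 values (10 genes in 17 mice), 3 were at 0, and these were *Ccl3* in WT female 1, U9-KO female 3 and U9-KO female 4. A count of 0 allows up to 3 reads, which is 2.80, 3.96 and 3.05 normalized counts in these libraries. The other 9 members were above 0 in all 17 mice, and 2 members (*Ccl2* and *Saa3*) were at 10 or more in all 17. The mean over all mice was at least 10 for 6 members and under 10 for *Il6*, *Il10*, *Ccl3* and *Ccl4*.

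Per kb of exon, with all annotated exons of a gene merged, the members spanned more than 2 orders of magnitude. In females the median levels ran from 343 normalized counts per kb for *Saa3* through 48.8 for *Ccl2*, 12.9 for *Ccl4*, 8 for *Cxcl1*, 6.29 for *Il1b*, 4.27 for *Tnf*, 3.05 for *Il10*, 2.61 for *Ccl3* and 1.03 for *Il6* to 0.723 for *Il1rn*. Only *Ccl2* and *Ccl4*, among neighbours in that order, had ranges that did not overlap. In males the order was *Ccl2* (144), *Saa3* (132), *Tnf* (12.8), *Cxcl1* (9.60), *Ccl3* (9.14), *Ccl4* (7.58), *Il1b* (4.72), *Il1rn* (3.25), *Il10* (2.29) and *Il6* (1.24). There only the ranges of the neighbours *Saa3* and *Tnf* did not overlap. The chemokine gene *Ccl2* and the acute phase gene *Saa3* thus stood above the cytokine genes in both sexes, and *Il6* was at or next to the bottom.

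**Figure D1:**
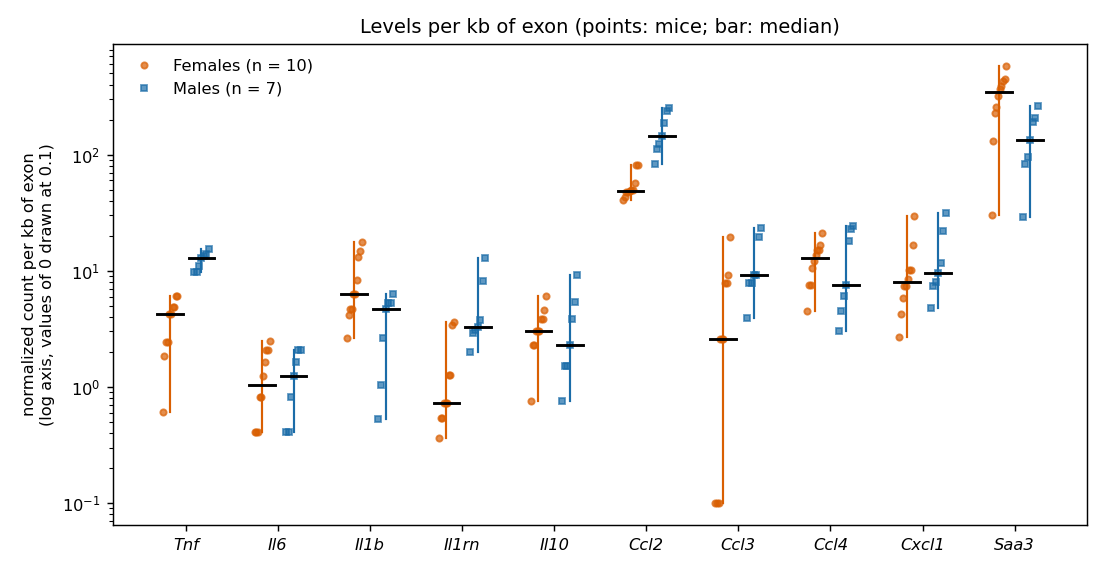
Normalized counts per kb of exon (log axis) of the 10 genes, with 1 point per mouse, a line over the range and a black bar at the median, for 10 females and 7 males scaled separately. *Saa3* and *Ccl2* lay highest in both sexes, and the 3 values of *Ccl3* at 0 are drawn at 0.1.

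For 6 of the 10 members the median over males was higher than the median over females, and for *Ccl2* and *Tnf* every male was above every female. The lowest and highest values of *Ccl2* were 46 and 93 among the 10 females, and 94 and 289 among the 7 males. Those of *Tnf* were 1 and 10 among females, and 16 and 25 among males. These are descriptions, without a test, because the scaling of females and males was not shared.

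The question of the study was whether loss of *U90926* changes fat, and for these genes no difference between U9-KO and WT passed the test in either sex. A test by limma on log2(normalized count + 1), adjusted over all genes tested, called 0 of the 10 members in females and 0 in males. Beside these stand 0% of all 24825 genes tested in females and 0% of all 21930 in males. The paper, by DESeq2 at the same threshold of 0.05, reported some differentially expressed genes within each sex, so the 0% holds for this limma test only. At an unadjusted limma p under 0.05 the count was 0 of 10 in females, where 2.23% of all genes passed, and 4 of 10 in males, where 7.6% passed, or 4.09% when only genes lower in U9-KO are counted. In no member did the values of U9-KO and WT mice separate without overlap, which 0.238% of all genes did in females and 7.6% in males. All fold changes below are on the log2(value + 1) scale, which understates the change of low genes.

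**Figure D2:**
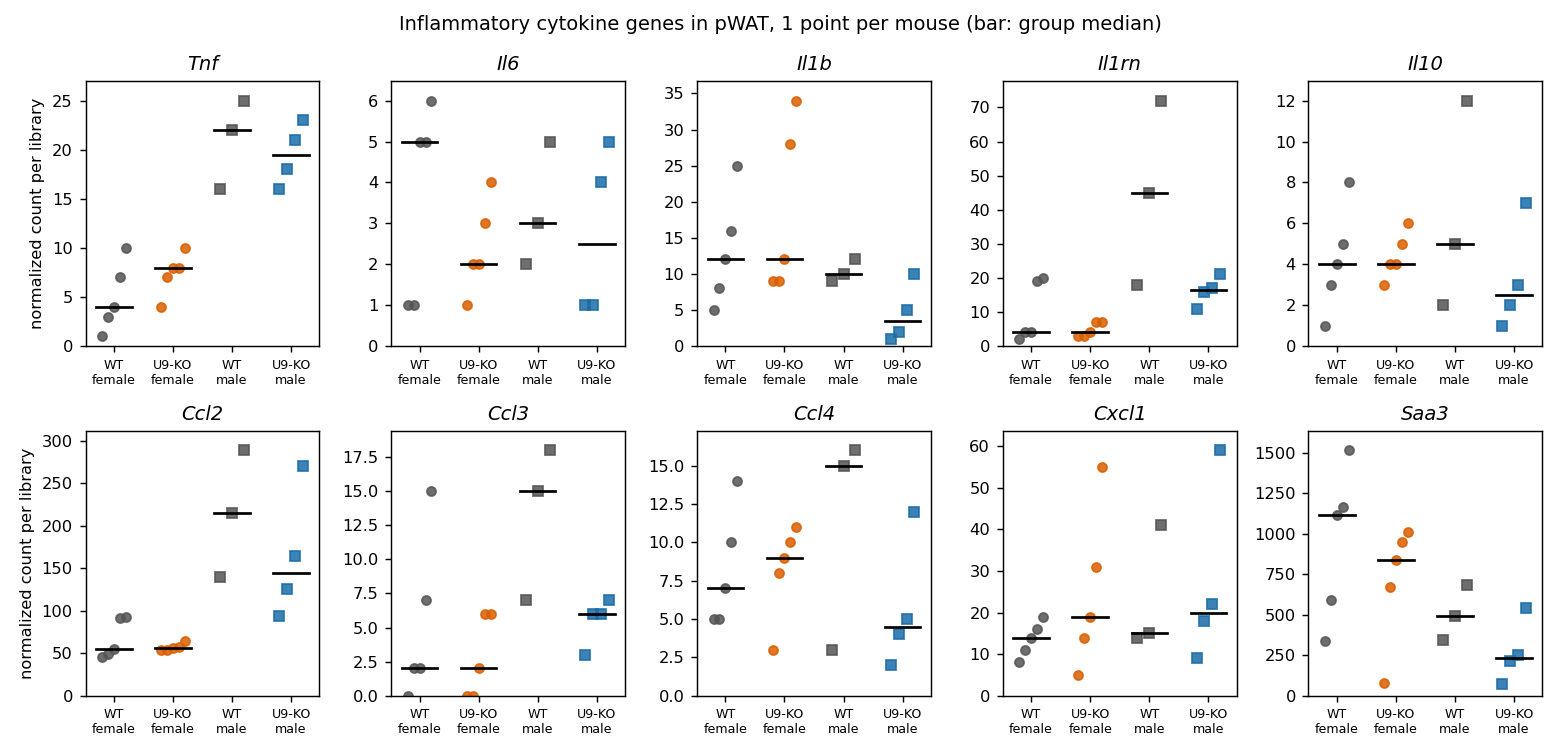
Normalized counts per library of each of the 10 genes in WT females (n = 5), U9-KO females (n = 5), WT males (n = 3) and U9-KO males (n = 4), with 1 point per mouse and a bar at the group median. Points of WT and U9-KO overlapped in each panel within each sex.

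*Tnf* (ENSMUSG00000024401, GRCm38 chr17:35199381-35202007, minus strand, protein coding) encodes the cytokine that gives the TNF family its name. Its normalized counts were 7, 10, 1, 3 and 4 in WT females and 10, 8, 4, 7 and 8 in U9-KO females. They were 25, 16 and 22 in WT males and 21, 16, 23 and 18 in U9-KO males. The groups overlapped in both sexes, and the SD within a group was 0.700 to 1.65 times the SD that counting of reads alone would give. The log2 difference, U9-KO minus WT, was 0.67 (SE 0.47, limma adjusted p = 1) in females and -0.09 (SE 0.29, limma adjusted p = 0.947) in males. Without WT female 3 the female value was 0.33.

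*Il6* (ENSMUSG00000025746, chr5:30013114-30019981, plus strand) encodes interleukin 6, the cytokine that induces acute phase proteins in liver. Its counts were 6, 5, 1, 5 and 1 in WT females and 2, 1, 4, 3 and 2 in U9-KO females. The WT males held 3, 2 and 5 and the U9-KO males 4, 1, 5 and 1. A group held between 10 and 20 reads in all, and the spread within groups was 0.701 to 1.32 times the counting SD. The differences were -0.30 (SE 0.48) and -0.33 (SE 0.60) in log2, with limma adjusted p = 1 and 0.899, and their 95% intervals were -1.35 to 0.76 for females and -1.66 to 1.00 for males. Leaving out WT female 1 or WT female 3 gave -0.09 or -0.55 in females, and leaving out WT male 3 or U9-KO male 3 gave -0.07 or -0.62 in males. Both intervals hold a 2-fold lower level in U9-KO mice.

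*Il1b* (ENSMUSG00000027398, chr2:129364570-129371139, minus strand) encodes IL-1β, made by activated macrophages and neutrophils. An exon of it overlaps *Il1bos* on the other strand, and whether strand was used in counting was not given in the sources used here. Counts were 5, 12, 16, 25 and 8 in WT females and 28, 9, 34, 12 and 9 in U9-KO females. In males they were 10, 12 and 9 in WT and 5, 1, 10 and 2 in U9-KO mice. U9-KO females 1 and 3 were above all WT females, whereas 3 of the 4 U9-KO males were below all WT males. The log2 difference was 0.42 (SE 0.50, limma adjusted p = 1) in females and -1.34 (SE 0.59, limma unadjusted p = 0.0483, adjusted p = 0.654) in males. Without U9-KO female 3 the female value was 0.15, and without WT female 4 it was 0.68.

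*Il1rn* (ENSMUSG00000026981, chr2:24336853-24351494, plus strand) encodes the IL-1 receptor antagonist, which blocks the receptor of IL-1. Its counts were 2, 20, 4, 19 and 4 in WT females and 7, 3, 4, 3 and 7 in U9-KO females. They were 18, 72 and 45 in WT males and 16, 11, 21 and 17 in U9-KO males. WT females 2 and 4 and WT males 2 and 3 were high, and U9-KO male 3 was above WT male 1. The log2 difference was -0.52 (SE 0.58, limma adjusted p = 1) in females and -1.24 (SE 0.44, 95% interval -2.23 to -0.26, limma unadjusted p = 0.0183, adjusted p = 0.612) in males. In females it was -0.17 without WT female 2 and -0.88 without WT female 1. In males, leaving out WT male 2 gave -0.81 and leaving out WT male 1 gave -1.78, with limma adjusted p = 0.0799 in the latter. This was the smallest adjusted p of any member under any setting tried.

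*Il10* (ENSMUSG00000016529, chr1:131019845-131024974, plus strand) encodes the anti-inflammatory cytokine IL-10. It was at 3, 4, 1, 5 and 8 in WT females and at 4, 3, 4, 5 and 6 in U9-KO females, and at 5, 12 and 2 in WT males and 2, 7, 3 and 1 in U9-KO males. WT male 2 was highest of all mice, and the groups overlapped. Log2 differences were 0.19 (SE 0.42, limma adjusted p = 1) in females and -0.73 (SE 0.66, limma adjusted p = 0.787) in males. In females it was -0.11 without WT female 3 and 0.43 without WT female 5. In males it was -0.19 without WT male 2 and -1.25 without WT male 3.

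*Ccl2* (ENSMUSG00000035385, chr11:82035571-82037453, plus strand) encodes MCP-1, the main attractant of CCR2-bearing monocytes. Counts were 92, 93, 46, 55 and 49 in WT females and 54, 54, 65, 56 and 57 in U9-KO females. In males they were 289, 215 and 140 in WT and 94, 126, 270 and 164 in U9-KO mice. The U9-KO females lay within the range of WT females, with an SD of 4.55 against 23.5 in WT. The log2 difference was -0.16 (SE 0.23, 95% interval -0.67 to 0.35, limma adjusted p = 1) in females, the narrowest interval of any member there, and it was -0.03 without WT female 2 and -0.28 without WT female 3. It was -0.44 (SE 0.34, limma adjusted p = 0.755) in males, and leaving out WT male 1 or U9-KO male 3 gave -0.20 or -0.72.

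*Ccl3* (ENSMUSG00000000982, chr11:83647844-83649355, minus strand) and *Ccl4* (ENSMUSG00000018930, chr11:83662584-83664683, plus strand) lie beside each other and encode the chemokines MIP-1α and MIP-1β. *Ccl3* was at 0, 7, 2, 15 and 2 in WT females and 2, 6, 0, 0 and 6 in U9-KO females. It was at 15, 18 and 7 in WT males and 7, 3, 6 and 6 in U9-KO males, so that U9-KO values reached up to the lowest WT male. Its log2 difference was -0.59 (SE 0.83, limma adjusted p = 1) in females and -1.10 (SE 0.45, limma unadjusted p = 0.0365, adjusted p = 0.629) in males. The female value was -0.10 without WT female 4 and -1.10 without WT female 1. *Ccl4* was at 7, 10, 5, 14 and 5 in WT females and 10, 9, 8, 11 and 3 in U9-KO females, and at 15, 3 and 16 in WT males and 4, 12, 5 and 2 in U9-KO males. WT male 2, highest of the WT males in *Ccl3*, was the lowest of them in *Ccl4*. The log2 difference of *Ccl4* was 0.00 (SE 0.41, limma adjusted p = 1) in females and -0.81 (SE 0.66, limma adjusted p = 0.762) in males, and the male value was -1.50 without WT male 2 and -0.45 without WT male 3.

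*Cxcl1* (ENSMUSG00000029380, chr5:90891241-90893115, plus strand) encodes KC, a ligand of CXCR2 on neutrophils. Counts were 8, 14, 16, 19 and 11 in WT females and 31, 14, 55, 19 and 5 in U9-KO females. They were 14, 41 and 15 in WT males and 18, 9, 59 and 22 in U9-KO males. In each sex a U9-KO mouse was highest, and the lowest mouse was U9-KO as well. The log2 difference was 0.51 (SE 0.53, limma adjusted p = 1) in females and 0.07 (SE 0.59, limma adjusted p = 0.985) in males. Leaving out U9-KO female 3 gave 0.14 and leaving out U9-KO female 5 gave 0.94 in females, and in males the value ran from -0.40 without U9-KO male 3 to 0.55 without WT male 2.

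*Saa3* (ENSMUSG00000040026, chr7:46711998-46715700, minus strand) encodes serum amyloid A3, an acute phase protein made outside the liver. Its counts were 1114, 1515, 594, 340 and 1164 in WT females and 839, 1008, 79, 670 and 948 in U9-KO females. They were 685, 494 and 345 in WT males and 215, 539, 249 and 75 in U9-KO males. U9-KO female 3 and U9-KO male 4 were the lowest of their sexes, and U9-KO male 2 lay within the range of WT males. The SD within a group was 7.73 to 15.9 times the counting SD, so mice differed far beyond the precision of the counts. The log2 difference was -0.64 (SE 0.67, limma adjusted p = 1) in females. It was 0.04 without U9-KO female 3, -0.96 without WT female 4, and -1.13 without both ovary-rich females. In males it was -1.17 (SE 0.52, 95% interval -2.34 to -0.01, limma unadjusted p = 0.0482, adjusted p = 0.654), -0.67 without U9-KO male 4 and -1.61 without U9-KO male 2.

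**Figure D3:**
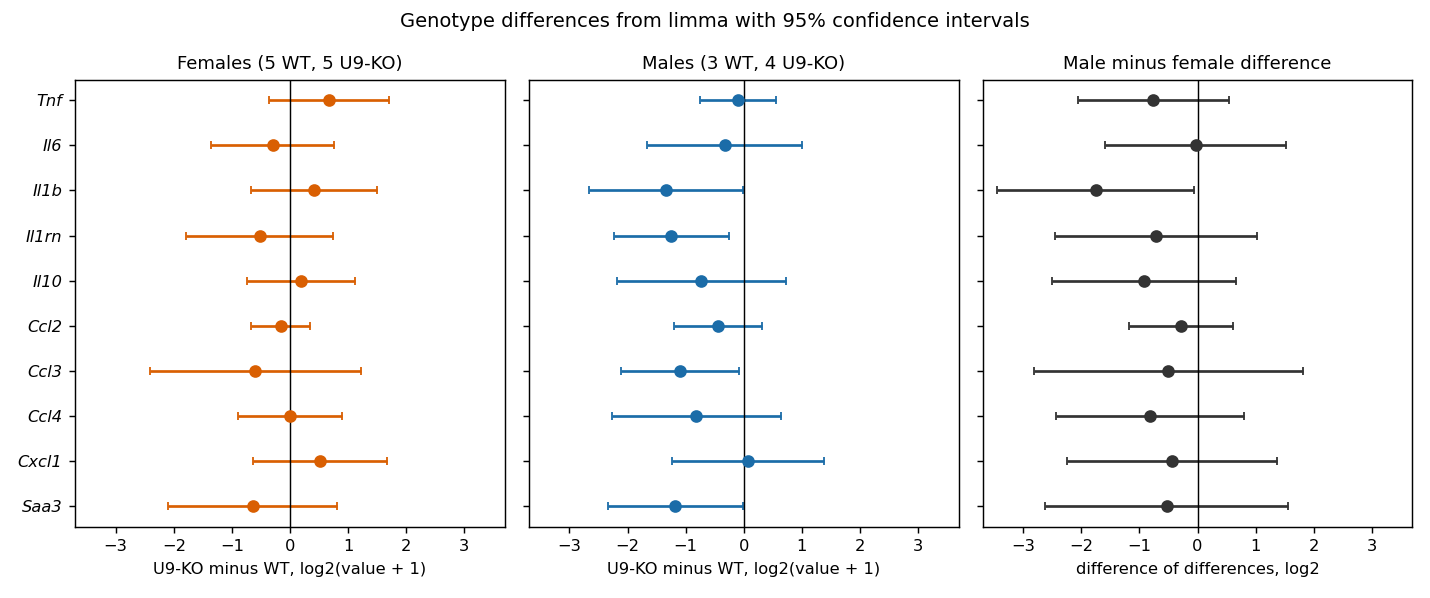
Log2 differences between U9-KO and WT mice with 95% confidence intervals from limma, in females, in males, and for the male minus the female difference (a sex by genotype term). Intervals of females all include 0, and those of *Il1b*, *Il1rn*, *Ccl3* and *Saa3* in males and of *Il1b* in the sex by genotype term lie below 0 without adjustment.

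Counted over the set, 4 members had a value above 0 in females, 5 had one below 0 and *Ccl4* was at 0, with a median log2 difference of -0.08, and 49.9% of all genes were below 0. In males 1 was above 0 and 9 were below, with a median of -0.77 and 49.8% of all genes below, where the median of all genes was 0.00 in both sexes. In males the members at an unadjusted limma p under 0.05 were *Il1b*, *Il1rn*, *Ccl3* and *Saa3*, and their number ran from 1 to 4 over the settings and left-out mice tried. It was 1 without WT male 1 and 1 without WT male 2, and 9 or 10 members stayed below 0 with any male left out. In a fit of both sexes with sex as a covariate, 2 members were above and 8 below 0 (50.9% of genes were below). None of 10 was called beside 0% of 26289 genes, and none was at an unadjusted limma p under 0.05, which 4.02% of genes were. *Il1rn* came nearest there, at -0.82 in log2 (SE 0.40, limma unadjusted p = 0.0567, adjusted p = 0.938).

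The difference between males and females in the effect of genotype was tested as an interaction. All 10 values were below 0, that is, U9-KO minus WT was lower in males, with a median of -0.63 in log2, and 50.2% of all genes were below 0. None passed adjustment, beside 0% of 26289 genes, and 1 of 10 (*Il1b*, -1.75, SE 0.80, limma unadjusted p = 0.0428, adjusted p = 1) was under 0.05 before it, as were 3.46% of genes. All 10 immediate early genes tested, a list that includes *Fos*, *Jun* and *Ier3*, were below 0 in the same term. In U9-KO females 9 of 10 were higher, 2 at an unadjusted limma p under 0.05, beside 2.23% of all genes in females. In U9-KO males 7 of 10 were lower. Other lists were mostly below 0 in the interaction as well. These were 15 of 17 receptor genes, 15 of 16 genes of NF-κB feedback and signalling, and 10 of 11 macrophage and monocyte markers. So were 5 of 5 B cell markers, 6 of 6 T cell markers and 6 of 7 neutrophil markers tested. Of the adipocyte markers 3 of 6 were below 0, and of the mesothelium markers 1 of 6. The part of any of these lists in the result was not tested.

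Macrophage markers, like the members, mostly had lower values in U9-KO than in WT males. There 11 of 11 macrophage and monocyte markers had values below 0, and none was called. An unadjusted limma p under 0.05 was found for 6 of them. Of all genes in males 7.6% were at that level, or 4.09% when only genes lower in U9-KO are counted. The macrophage and monocyte markers summed to 27631 to 45388 normalized counts in WT males and 21055 to 27113 in U9-KO males. No marker of the list was at 0 throughout. The WT male with the highest sum was WT male 2, which also had the highest *Il1rn* (72) and the highest *Il10* (12). Among WT males it was highest in *Il1b* (12), *Ccl3* (18) and *Cxcl1* (41) and lowest in *Tnf* (16), *Il6* (2) and *Ccl4* (3). *Ccl2* and *Saa3* were highest in WT male 1 (289 and 685). In females 9 of 11 macrophage and monocyte markers were below 0. An unadjusted limma p under 0.05 was found for 1, which was above 0, beside 2.23% of all genes in females. Sums in females were 13971 to 25907 in WT and 13513 to 23983 in U9-KO mice. B cell markers were below 0 in 5 of 5 in males, with 5 at an unadjusted limma p under 0.05. Their sums were 348 to 823 in WT and 238 to 281 in U9-KO males. T cell markers were below 0 in 6 of 6 in males, with 1 at that level and sums of 158 to 305 and 87 to 182. Of all genes in males, 4.09% were at that level and lower in U9-KO. The part of macrophages, B cells and T cells in the values of the members in males, none of which was called, was not tested.

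The summed neutrophil markers were highest in a mouse that was also extreme for several members. They summed to 120 to 208 in WT females, 151 to 459 in U9-KO females, 206 to 303 in WT males and 158 to 205 in U9-KO males. The highest sum was that of U9-KO female 3, where the calprotectin subunit genes *S100a8* and *S100a9* were at 94 and 145. *S100a8* was at 106 in WT male 2, and other markers were not highest in U9-KO female 3: *Csf3r* was at 169 there and 188 in WT female 1, *Ngp* at 11 there and 32 in U9-KO female 2, *Camp* at 8 there and 64 in U9-KO male 1, and *Ly6g* at 0. U9-KO female 3 also had the highest *Il1b* (34) and the highest *Cxcl1* of females (55). Its *Saa3* (79) and its mesothelium sum (6403) were the lowest of females. The mesothelium sum of U9-KO female 1 was likewise below those of WT females (7948 to 12552), and *Saa3* was at 839 there. In U9-KO female 3 the neutrophil chemokine gene *Cxcl5* was at 104, against 0 to 10 in the other mice. The receptor gene *Cxcr2* was at 25 there, against 0 to 6. Without this mouse, 5 members were below 0 in females and the median was 0.01.

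Members differed in how they varied together among the mice. Over the 17 mice, with log2 values centred within each sex, Pearson's r was 0.72 for *Il1b* with *Cxcl1* (0.85 within females and 0.57 within males) and 0.71 for *Il1rn* with *Ccl3* (0.75 and 0.65). The lowest r was that of *Cxcl1* with *Saa3*, at -0.56 (-0.74 within females and -0.25 within males), and without U9-KO female 3 it was -0.31 over 16 mice and -0.40 within females. With any 1 mouse left out, r ran from 0.66 to 0.79 for *Il1b* with *Cxcl1* and from 0.62 to 0.80 for *Il1rn* with *Ccl3*. All other pairs of the 45 lay between these bounds. These values describe 17 libraries that share their depth and tissue makeup within a mouse, and low counts limit them.

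**Figure D4:**
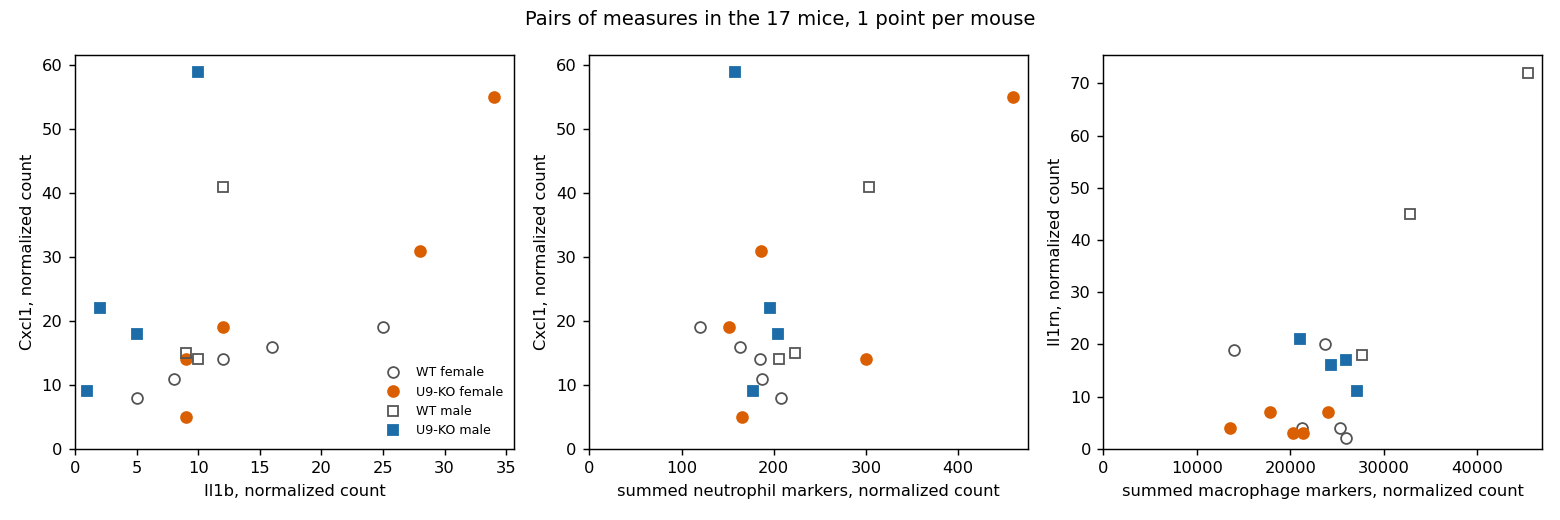
Normalized counts of *Cxcl1* against *Il1b* (left), of *Cxcl1* against summed neutrophil markers (middle) and of *Il1rn* against summed macrophage markers (right), with 1 point per mouse in the 4 groups. U9-KO female 3 lies at the upper right of the left and middle panels, with *Cxcl1* at 55, and WT male 2 at the upper right of the right panel, with *Il1rn* at 72.

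For each member with a mean of at least 10, the 3 genes with the most similar pattern were taken from about 13748 genes with a mean of at least 50, by the same r over 17 mice. *Ccl2* was nearest to *Ccl7* (0.84), which encodes another attractant of monocytes, then to *Rasl11a* (0.78) and *Crcp* (0.72). *Saa3* was nearest to *Padi4* (0.90), which encodes a peptidylarginine deiminase, *Alox15* (0.89), which encodes a lipoxygenase, and *Cma1* (0.87), which encodes a mast cell chymase. *Il1b* was nearest to *Chic2* (0.79), *Ing2* (0.77) and the early response gene *Ier3* (0.76), and *Cxcl1* to *Nkap* (0.79), *Phka1* (0.76) and the phosphodiesterase gene *Pde4b* (0.73). *Il1rn* was nearest to *Tmc6* (0.82), *Cyth3* (0.81) and *1600012H06Rik* (0.81), and *Tnf* to *Fam207a* (0.87), *Ncdn* (0.83) and *Trmt61a* (0.82). Each is the top of many candidates, so the r is high by selection, and within males alone it was lower for *Tnf* (0.69 with *Fam207a*, against 0.94 within females) and for *Saa3* (0.76 with *Padi4*, against 0.97). Without U9-KO female 3 the r of *Saa3* was 0.80 with *Padi4*, 0.81 with *Alox15* and 0.71 with *Cma1*.

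Genes of receptors for these and related ligands spanned a wide range of levels, and none was called. Of 17 receptor genes, 9 had values above 0 and 8 below in females, and 3 above and 14 below in males. In males 4 of those below were at an unadjusted limma p under 0.05, and 4.09% of all genes were lower at that level. The values of U9-KO and WT males did not overlap for 2 receptor genes, beside 7.6% of all genes. *Il6st*, which encodes the shared receptor subunit gp130, was the most abundant, at 7707 to 10790 in WT females and 7203 to 10838 in U9-KO females. *Fpr2*, a formyl peptide receptor gene whose ligands include serum amyloid A, was at 3 to 8 in WT and 9 to 16 in U9-KO females (0.98 in log2, SE 0.35, limma unadjusted p = 0.0177, adjusted p = 1). It had the smallest p of the 17 receptor genes in females. In males *Fpr2* was at 1 to 8 in WT and 4 to 8 in U9-KO mice (0.28 in log2, SE 0.58). An exon of *Fpr2* overlaps *Fpr3* on the same strand. The groups of *Fpr2* did not overlap in females, as those of 0.238% of all genes did not. *Tnfrsf1b*, which encodes TNF receptor 2, was at 941 to 1492 in WT and 783 to 1008 in U9-KO females (-0.27, SE 0.13), and without WT female 4, which held the 1492, the value was -0.16. In males *Il10ra*, a receptor gene of IL-10, was at 290 to 541 in WT and 265 to 284 in U9-KO mice (-0.57, SE 0.18, limma adjusted p = 0.612), and *Il6ra* was at 781 to 1345 and 691 to 875 (-0.44, SE 0.16, limma adjusted p = 0.614). Without WT male 2 these values were -0.37 for *Il10ra* and -0.26 for *Il6ra*. Without WT male 1 the value of *Il10ra* was -0.81 and its limma adjusted p was 0.0415, a call that no other setting gave.

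Genes of NF-κB feedback, the inflammasome and cytokine signalling gave 9 values above and 7 below 0 in females and 1 above and 15 below in males. Of these 16 genes 0 were called. In males 4 were at an unadjusted limma p under 0.05, all lower in U9-KO, and 4.09% of all genes were lower at that level. *Stat3* was the most abundant, at 3137 to 3564 in WT females and 3034 to 3587 in U9-KO females. *Pycard*, which encodes the inflammasome adaptor ASC, was at 117 to 130 in WT males and 72 to 86 in U9-KO males (-0.64 in log2, SE 0.15, limma unadjusted p = 0.00143, adjusted p = 0.612). *Nfkbia*, which encodes the NF-κB inhibitor IκBα, was at 1153 to 1351 and 990 to 1080 (-0.31, SE 0.08, limma adjusted p = 0.612). Both were without overlap, as 7.6% of all genes were in males. In females the smallest p values belonged to *Socs3*, a feedback inhibitor of STAT3 signalling (-0.47, SE 0.27), and *Zfp36*, which encodes an RNA decay factor acting on *Tnf* mRNA (0.16, SE 0.11), both at limma adjusted p = 1, and *Socs3* was -0.17 without WT female 4 and *Zfp36* was 0.10 without U9-KO female 4.

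Other chemokine and cytokine genes gave 14 values above and 13 below 0 in females and 7 above and 19 below in males, again with none called. The stromal chemokine gene *Cxcl12* was the most abundant, at 5041 to 8174 in WT and 7435 to 9734 in U9-KO females (0.28, SE 0.14). Its value was 0.16 without WT female 4, which held the 5041, and 0.11 without both ovary-rich females. *Lif* was at 38 to 84 and 59 to 108 (0.51, SE 0.26). In males *Ccl8*, a monocyte chemokine gene, was at 226 to 837 in WT and 77 to 180 in U9-KO mice (-1.53, SE 0.43, limma unadjusted p = 0.00538, adjusted p = 0.612), and without WT male 2 it was -0.95. *Il1a*, which encodes IL-1α, was at 5 to 13 and 2 to 4 (-1.45, SE 0.48, limma adjusted p = 0.612). In females the range of *Ccl8* was 46 to 122 in WT and 55 to 182 in U9-KO mice.

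Of the other acute phase genes, 9 of 12 were above 0 in females and 8 of 10 below in males, with none called and none at an unadjusted limma p under 0.05. *Apcs* was at 0 in all mice. Haptoglobin (*Hp*) was by far the most abundant, at 7613 to 12272 in WT and 7188 to 18832 in U9-KO females and at 63749 to 123863 in WT and 59702 to 93808 in U9-KO males. Its log2 difference was 0.25 (SE 0.23) in females, between 0.09 (without U9-KO female 4) and 0.43 (without U9-KO female 1) with a mouse left out. In males it was -0.31 (SE 0.24), between -0.60 (without WT male 1) and -0.12 (without WT male 2). *Orm1* was 0.40 (SE 0.47) in females, 0.05 without U9-KO female 3 and 0.73 without U9-KO female 4. *Mt1* was -0.24 (SE 0.16) in males, -0.11 without WT male 1 and -0.37 without WT male 2. The range of *Hp* in males thus lay wholly above that in females, while *Saa3* was higher in the median female than in the median male.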

How the data were processed

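RNA from pWAT of 17 mice was sequenced as directional, poly(A)-selected paired-end libraries. The authors trimmed reads (trim_galore), aligned them with STAR and counted them per gene with summarizeOverlaps. The submitters' processing notes name STAR 2.7.3a, DESeq2 1.28.1 and GRCm38. What the authors deposited is a score for each gene, read counts divided by a size factor of each library and rounded to whole numbers, which keep no exact reads, so no count model was used. Females and males appear to have had their factors set apart from each other. Depth was estimated from values that rounding leaves out or that 2 read counts share after rounding. In 2 male libraries the column header and the sample label differ in replicate number, and the label was followed. A table of the whole series repeats these values and was not used.

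Values were analysed as log2(value + 1) with limma 3.58.1 (R 4.3.3), with a mean-variance trend, in genes whose values summed to at least 10 over the mice of the fit, within females, within males, in all mice with sex as a further term, and as a sex by genotype term. P-values are two-sided, adjusted by Benjamini-Hochberg over all genes tested, with a threshold of 0.05. The code was tested on simulated data. Exon lengths and positions are from GENCODE M21 (GRCm38).

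The 10 members and all gene lists were chosen with earlier results of these data known. Text names all members, the most abundant gene of each list (1 is not reported here), up to 2 genes of each pathway list with the smallest unadjusted p per sex, and the genes most like each member; *Cxcl5*, *Cxcr2*, *S100a8*, *S100a9*, *Ngp*, *Camp*, *Ly6g*, and the examples *Fos* and *Jun*, were chosen after their values were seen. Alternatives were other pseudocounts (0.5 and 4), filters (none, or a mean of at least 10), TMM or quantile scaling, no trend, robust empirical Bayes, all 17 mice in 1 fit, the replicate number as a block, leaving out each mouse, and, chosen after seeing the data, leaving out both ovary-rich females.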

Additional observations from a re-analysis of the deposited data

Results flagged for a closer look

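Of 30 sets of values (10 members in the groups of 4 or 5 mice), 1 held a mouse far from the rest of its group by Dixon's test, where chance gives about 1 in 20. *Ccl2* was at 65 normalized counts in U9-KO female 3 and at 54 to 57 in the other U9-KO females. These values are close together, since the SD of the group was 0.581 times the counting SD, and 65 lies within the range of WT females (46 to 93).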

How the results depend on the processing

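No member was called under any setting or with any mouse left out, in any of the 4 fits. Over all genes the limma count of calls was 0, and it became 1 in females, in males and in the fit of both sexes without the mean-variance trend, 1 in the fit of both sexes with a pseudocount of 0.5 or with no filter, and 1 in the interaction with no filter. With 1 mouse left out it ran from 0 to 71 in males, and 71 was reached without WT male 1. The cause was not tested.

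Within females, within males and in the fit of both sexes, signs of members turned only when a mouse was left out, apart from *Ccl4* in females, whose difference was 0. In the interaction 9 or 10 of 10 members were below 0 under each setting, and 6 of 6 where a mean of at least 10 was required. With single mice left out the log2 difference ran from -0.112 to 0.431 for *Il10* and from -0.964 to 0.042 for *Saa3* in females, from -0.267 to 0.039 for *Tnf* and from -0.402 to 0.547 for *Cxcl1* in males, and from -0.38 to 0.059 for *Il10* in the fit of both sexes. Leaving out both ovary-rich females gave -0.14 for *Ccl3* and 0.47 for *Tnf* in females, with 0 members called.

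In males, members at an unadjusted limma p under 0.05 numbered 4 as reported, 4 with TMM scaling or a pseudocount of 4, 3 with a pseudocount of 0.5 or robust empirical Bayes, 2 with no filter or no trend, and 1 with quantile scaling, with all 17 mice in 1 fit, or, of 5 tested, with a mean of at least 10.

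Replicate numbers did not pair the mice: deviations of same-numbered WT and U9-KO mice correlated between -0.48 and 0.19 among females, and between -0.14 and 0.08 among males. With the replicate number as a block, 0 genes and 0 members were called in each fit, and in males 1 member was at an unadjusted limma p under 0.05, with a median log2 difference of -0.49.

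Depth limits *Il6*, *Il10*, *Ccl3* and *Ccl4*, whose groups held 10 to 44 reads in all. It also limits *Il1b* in males, with 33 reads in WT and 20 in U9-KO mice. In females it limits *Tnf*, with 28 reads in WT and 36 in U9-KO mice, and *Il1rn*, with 54 and 24.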
